A study of Mus musculus with 2 samples.

Results

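The cells described here are those in which transcripts of the mitochondrial genome made up more than 10% of all unique molecular identifiers (UMIs, each standing for 1 captured RNA molecule). They were selected on this mitochondrial share alone, over all deposited cells, and no other filter was applied. The rule found 106 of 2027 cells: 73 of 1073 in the SRF KO library and 33 of 954 in the WT library. All are mouse induced pluripotent stem cells (iPSCs), which are somatic cells reprogrammed to resemble embryonic stem cells. SRF KO cells carried the deleted allele pair (SRFΔ/Δ) of Srf, the gene of serum response factor, and WT cells carried SRFf/f, the floxed and unrecombined pair. Both were grown in medium with serum. Each genotype gave 1 droplet library (10x Genomics Chromium, sequenced on an Illumina NovaSeq). The labels name neither the clones, the passage nor the feeder layer. With 1 library per genotype there was no test and no p-value. The 95% intervals below are exact and cover counting error only, and a gene is called higher or lower past a 2-fold limit (log2 ratio of 1) reached in both libraries.

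The mitochondrial genome encodes core subunits of the respiratory chain and of ATP synthase, and its messenger RNAs stay inside the organelle. Nuclear messenger RNAs are found free in the cytosol, bound to the surface of the endoplasmic reticulum (ER) or mitochondria, or in the nucleus. Secreted and membrane proteins mostly begin with, or soon contain, a hydrophobic stretch that brings the translating ribosome and its messenger RNA to the ER membrane. Cytosolic proteins lack such a stretch, and tail-anchored proteins carry it at the end, so that it leaves the ribosome only when translation is over. A high mitochondrial share is commonly used as a sign of a damaged cell and as a reason to remove it.

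Within each library the selected cells were set against comparison cells chosen for like depth. These had a mitochondrial share of 1 to 10% and fewer than 12000 UMIs: 89 in SRF KO and 126 in WT. The selected cells had no depth limit, and 9 of 73 in SRF KO and 5 of 33 in WT held 12000 UMIs or more. Levels of nuclear genes are in CPM, counts per 1000000 of the UMIs left after the mitochondrial genes were taken out, summed over the cells of a group. The log2 ratio is selected over comparison cells, and 0.5 counts were added to the sums first. A gene entered when its mean over both cell groups reached 100 CPM in SRF KO and in WT, which left 1248. A gene well under 100 CPM in 1 cell group could thus enter only by being high in the other. Slc16a3, for example, had 50.8 and 63.6 CPM in the comparison cells and entered through the selected cells. Such genes add to the calls in either direction, and they were not counted separately.

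The first coding bases of 5 genes show the feature that the results below are ordered by. Each run is the first 105 coding bases (35 codons) of the main transcript in GENCODE M21 (GRCm38, the same assembly as mm10), 5′ to 3′. Capitals mark the 11 codons whose residues have the highest mean hydropathy on the Kyte-Doolittle scale. Of these genes, the first 4 were far higher in the selected cells, and their windows have means of 2.67 (Apoe), 2.83 (Hspa5), 2.89 (Igfbp2) and 3.1 (Trh). The last, Actb with 1.06, stays under the limit of 2 that defines a hydrophobic start. It was lower against the comparison cells (log2 ratios -1.22 and -2.64) but not against cells of any depth in SRF KO (0.00, and -0.36 in WT). The Hspa5 stretch lies at chr2:34772322-34772426 on the plus strand, that of Igfbp2 at chr1:72824580-72824684 on the plus strand, and that of Trh at chr6:92243775-92243879 on the minus strand. That of Actb (chr5:142905582-142905686) is on the minus strand. The Apoe run, on the minus strand, joins 2 exons between 19697586 and 19698230 of chromosome 7.
Apoe: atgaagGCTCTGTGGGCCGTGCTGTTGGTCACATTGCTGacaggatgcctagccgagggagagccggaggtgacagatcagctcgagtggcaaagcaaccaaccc
Hspa5: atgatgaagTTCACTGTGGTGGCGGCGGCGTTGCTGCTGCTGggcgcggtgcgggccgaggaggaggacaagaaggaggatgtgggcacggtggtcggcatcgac
Igfbp2: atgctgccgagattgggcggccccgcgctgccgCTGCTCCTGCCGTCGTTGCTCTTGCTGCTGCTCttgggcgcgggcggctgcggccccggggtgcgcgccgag
Trh: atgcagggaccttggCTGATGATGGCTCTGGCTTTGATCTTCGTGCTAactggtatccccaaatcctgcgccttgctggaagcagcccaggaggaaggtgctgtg
Actb: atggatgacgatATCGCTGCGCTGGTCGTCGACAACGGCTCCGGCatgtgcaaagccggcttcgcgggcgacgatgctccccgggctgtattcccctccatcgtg

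Mitochondrial and nuclear UMIs are what the rule used, and total UMIs also defined the comparison cells, so these counts only describe the selection. The selected cells' median was 1944 mitochondrial UMIs in SRF KO (quartiles 1373 and 2700.0) and 1474 in WT (quartiles 1025 and 1860.0). Cells of 1 to 10% mitochondrial share and any depth held medians of 1082.5 and 879. The comparison cells held medians of 275 and 366. Nuclear UMIs went the other way: 5422 and 5773 in the selected cells, 7350.0 and 8502.5 in the comparison cells, and 23191 and 25722 in cells of 1 to 10% at any depth. The plot of mitochondrial against nuclear UMIs shows each cell's position relative to the limit.

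**Figure D1:**
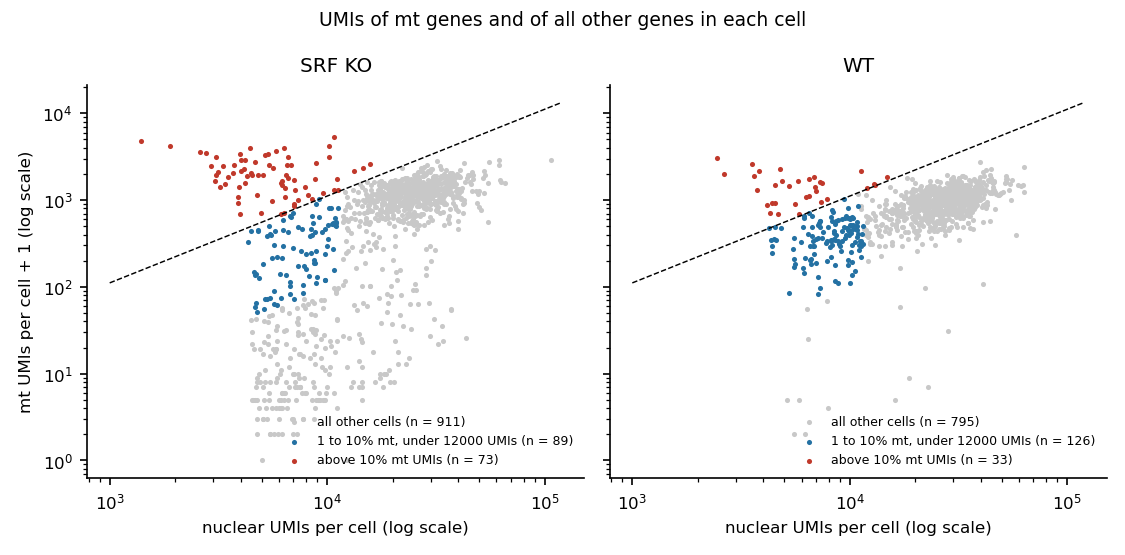
UMIs of mitochondrial genes (plus 1) against UMIs of all other genes, 1 point per cell, both axes logarithmic, 1 panel per library. The dashed line is a mitochondrial share of 10%. The 73 SRF KO and 33 WT cells above it hold medians of 1944 and 1474 mitochondrial UMIs, and the comparison cells 275 and 366.

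The mitochondrial share had a median of 27.6% in SRF KO (range 10.1 to 77.4%) and 17.3% in WT (10.1 to 55.3%). It was above 20% in 47 of the SRF KO and 13 of the WT cells, and above 40% in 13 and 3. Next to the limit, the 3 nearest cells below it had shares of 9.66, 9.68 and 9.94% in SRF KO and 9.91, 9.96 and 9.99% in WT. The 3 nearest above had 10.1, 10.1 and 10.5% in SRF KO and 10.1, 10.4 and 10.6% in WT. Genes detected per cell were alike before depth was matched, with medians of 2089 against 2083 in the SRF KO comparison cells and 2283 against 2352 in WT. After each cell was thinned to 2000 nuclear UMIs, the selected cells showed more genes: medians of 1107 against 893 in SRF KO and 1058 against 888 in WT. Thinning left out 2 SRF KO cells. Between the libraries, 2 cell barcodes were shared, and neither belonged to a selected cell.

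All 13 mitochondrial messenger RNAs in the matrix were measured, and their proportions were much the same as in the comparison cells. The subunit of ATP synthase mt-Atp6 took 20.5% of mitochondrial UMIs in the selected SRF KO cells (20.3 to 20.7) and 21.4% in WT (21.1 to 21.8), against 18.97% and 20.6% in the comparison cells. The complex IV subunit mt-Co1 took 16.9% and 16.7%, below its 19.7% and 19.8% in the comparison cells, and mt-Nd2 of complex I was also lower, at 2.81% and 2.61% against 3.13% and 3.29%. The share of mt-Nd1, a subunit of complex I, was 16.8% against 16.5% in SRF KO, with overlapping intervals, and 14.4% against 13.2% in WT. For mt-Co2 and mt-Co3 of complex IV the SRF KO shares were 12.1% and 15.7%, against 11.997% and 15.4%. The WT shares were 12.5% and 18.0%, against 12.4% and 16.6%. Cytochrome b (mt-Cytb) took 7.81% in SRF KO and 7.34% in WT, against 6.95% and 7.15%. Complex I subunit mt-Nd4 took 4.87% and 5.12%, against 4.62% and 4.91%. The other 5, mt-Atp8, mt-Nd3, mt-Nd4l, mt-Nd5 and mt-Nd6, each took at most 1.502% in the selected cells. Across the 13 genes the log2 ratio of shares stayed between -0.73 (mt-Nd6, with an interval that spans 0) and 0.17 in SRF KO, and between -0.37 and 0.34 in WT.

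Markers of pluripotent cells, taken as a list, were detected in nearly all selected cells. After thinning, 70 of 71 SRF KO and 32 of 33 WT cells carried at least 2 UMIs of the pluripotency markers, against 82 of 89 and 118 of 126 comparison cells. These counts rest mainly on 1 gene, Dppa5a. It gave 3841 of the list's 5332 UMIs in the selected SRF KO cells and 2677 of 3411 in the WT ones. Pou5f1, the gene of OCT4, stood at 383 CPM in SRF KO and 513 in WT, against 726 and 734 in the comparison cells. The epiblast coreceptor Tdgf1 was at 1431 and 1241 CPM, against 581 and 845. Nanog was at 91.3 and 75.2 CPM, against 92.6 and 104. Zfp42 was at 98.1 and 32.9 CPM, against 105 and 97.8, and Esrrb at 57.1 and 28.2, against 41.8 and 67.4. In the selected WT cells Zfp42 and Esrrb rest on 7 and 6 UMIs. The median log2 ratio of the 7 pluripotency genes that entered was 0.25 in both libraries. Srf itself had 0 UMIs in the selected SRF KO cells, which allows a level of up to 6.85 CPM, and 2 UMIs in the WT ones. In cells of 1 to 10% and any depth it had 17 UMIs in SRF KO and 205 in WT (0.944 and 9.06 CPM).

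In both libraries, genes of secreted and membrane proteins were higher in the selected cells. Of the 1248 genes, 106 (8.49%) were at least 2-fold higher in the selected cells of both libraries, and 15 (1.2%) at least 2-fold lower. In single libraries, 185 genes (14.8%) were past 2-fold higher in SRF KO and 172 (13.8%) in WT, while 36 (2.88%) and 42 (3.37%) were past 2-fold lower. The median log2 ratio of all genes was -0.14 in SRF KO and 0.15 in WT. The 12 genes furthest above the limit in both libraries were Apoe, Pdia6, Hspa5, Slc16a3, Igfbp2, Prkcsh, Trh, Cd9, Rpn2, Hspg2, Slc7a3 and Mfge8. All 12 encode proteins that are secreted, sit in a membrane or work inside the ER.

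Apoe, the gene of the secreted lipid carrier apolipoprotein E, stood at 5002 CPM in the selected SRF KO cells and 6319.9 in the WT ones, against 759.9 and 509.8 in the comparison cells. That is a log2 ratio of 2.72 (2.58 to 2.86) in SRF KO and 3.63 (3.49 to 3.78) in WT. It was not carried by a few cells. Its median share of a cell's nuclear UMIs was 0.358% and 0.51%, against 0.0357% and 0.0277%, and 63 of 73 and 30 of 33 selected cells lay above the upper quartile of their comparison cells. After thinning, 64 of 71 (90.1%, interval 80.7 to 95.9) and 31 of 33 (93.9%, 79.8 to 99.3) cells had an Apoe UMI, against 46.1% and 46.8% of comparison cells.

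Chaperones of the ER lumen formed the clearest list. Of 10 ER chaperone and quality-control genes that entered, 7 were past 2-fold higher in both libraries, and the medians were 1.97 in SRF KO and 1.58 in WT. Hspa5, the gene of the ER chaperone BiP, was at 1561 and 1091 CPM against 206 and 193, with log2 ratios of 2.92 (2.66 to 3.20) and 2.5004 (2.22 to 2.78). A Hspa5 UMI was seen in 81.7% of thinned SRF KO and 66.7% of thinned WT cells, against 28.1% and 25.4%. The disulfide isomerase gene Pdia6 was at 1389.8 and 987 CPM against 222 and 151 (log2 ratios 2.64 and 2.71). Its relative P4hb was higher by less in WT (1.64 and 0.62). The lowest of the list was Sec61b, which encodes the tail-anchored beta subunit of the ER translocation channel: 0.06 (-0.20 to 0.31) in SRF KO and -0.81 (-1.22 to -0.44) in WT. Beyond the list, genes of the oligosaccharyl transferase and its neighbours were called as well, with Rpn2 at 2.28 and 2.21, Rpn1 at 2.30 and 1.84, and Ddost at 1.78 and 2.40. Prkcsh, which encodes the beta subunit of glucosidase II of the ER, had log2 ratios of 2.27 and 2.42.

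Stress lists outside the ER had smaller ratios than these chaperones. The list of 9 heat shock genes of the cytosol and mitochondria had medians of -0.13 in SRF KO and 0.56 in WT and no member past 2-fold in both libraries. Hspd1, the mitochondrial HSP60 gene, had log2 ratios of 0.55 and 0.60, and Hsp90ab1 of the cytosol -0.39 and 0.28. The 7 genes of the integrated stress response that entered had medians of -0.03 in SRF KO and 0.65 in WT, with 3 and 6 above 0. Of the 7, 2 were called higher, a share above the 8.49% of all genes. Both encode amino acid transporter subunits of the plasma membrane: Slc3a2 (2.39 and 1.42) and Slc7a5 (1.53 and 1.30). The serine synthesis gene Psat1 was the lowest of the list in both libraries, with -0.85 and -0.21. Among p53 targets, Bax was at -0.51 and -0.59 and Ccng1 at 0.58 and 0.31. The antiapoptotic Mcl1 was at 0.80 and -0.35.

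Several of the highest genes encode proteins of the cell surface, which were grouped here after their values were seen. Slc16a3, a lactate exporter, stood at 292 CPM in SRF KO and 353 in WT against 50.8 and 63.6 (log2 ratios 2.51 and 2.47). The cationic amino acid transporter Slc7a3 was at 395 and 198 CPM against 46.3 and 44.6 (3.07 and 2.15), and the tetraspanin Cd9 at 1049.7 and 1081.5 against 227 and 154 (2.21 and 2.81). The glucose transporters Slc2a1 (2.62 and 2.13) and Slc2a3 (2.74 and 1.46) were the 2 called members of the 4 hypoxia-list genes that entered. Of all genes, 8.49% were called higher. The other 2 encode mitochondrial proteins and were not called. Pdk1, a kinase of the matrix, had 0.42 and 0.55, and Higd1a of the inner membrane -0.44 and -0.75. The list's medians were 1.52 and 1.004. With 4 genes, the list cannot show whether the place of the protein goes with the ratio.

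Secreted proteins made up the rest of the highest genes. Igfbp2, the gene of an insulin-like growth factor binding protein, was at 1556 and 1853 CPM against 303 and 351 (2.36 and 2.40). Trh, the gene of the precursor of thyrotropin-releasing hormone, was at 1333 and 1006 CPM against 287 and 148 (2.21 and 2.76). Hspg2, the gene of the basement membrane proteoglycan perlecan, had log2 ratios of 2.77 and 2.17. Mfge8, the gene of a secreted milk fat globule protein, had 2.15 and 2.59.

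When all genes were sorted by the predicted hydrophobicity of their proteins, the same order was seen in both libraries. A coding start was available for 1227 of the 1248 genes (98.3%). A hydrophobic start means an 11-residue window with a mean hydropathy of at least 2 within the first 35 residues. A stretch further in means a 19-residue window with a mean of at least 1.6 that reaches past those residues. A tail only means that every such window reaches into the last 40 residues, without having to lie wholly within them. The 3 classes other than the start were defined after the values had been seen. The 125 genes with a hydrophobic start had median log2 ratios of 1.002 in SRF KO and 0.94 in WT, and 98 and 106 of them were above 0. The 111 with a stretch further in had medians of 0.52 and 0.67. The 32 with a hydrophobic tail only had -0.29 and -0.23. The 883 with neither, ribosomal proteins left out, had -0.19 and 0.13.

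Of the 106 genes called higher, 51 had a hydrophobic start (48.1%, while such genes are 10.0% of all that entered). A stretch further in was found in 30 (28.3%, against 8.89% of all that entered). A tail only was found in 3 (2.83%), near the 2.56% of all that entered. Among the 106 are genes that entered only through the selected cells, such as Hspg2 (38.8 and 39.9 CPM in the comparison cells). These shares and the class medians therefore describe the genes and are no test of the classes. The 3 tail genes were Tmed9, Lman1 and Lman2, which were named after their values were seen. They encode cargo receptors of the early secretory pathway, proteins that begin with a signal peptide in textbook descriptions. The highest start window of Tmed9 had a mean of 1.99, just under the limit, and that of Lman2 was far under it. Genes with neither feature supplied 20 of the 106, and 2 more had no coding start, the long noncoding RNAs Malat1 and Kcnq1ot1. Of the 125 genes with a hydrophobic start, 2 were called lower, Mgp and Timp1, a share near the 1.2% of all genes. Several short or mitochondrial ones were near or below 0 in both libraries, such as Romo1 (-0.36 and -1.15) of the inner mitochondrial membrane and Tomm20 (-0.24 and -0.38) of the outer one.

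**Figure D2:**
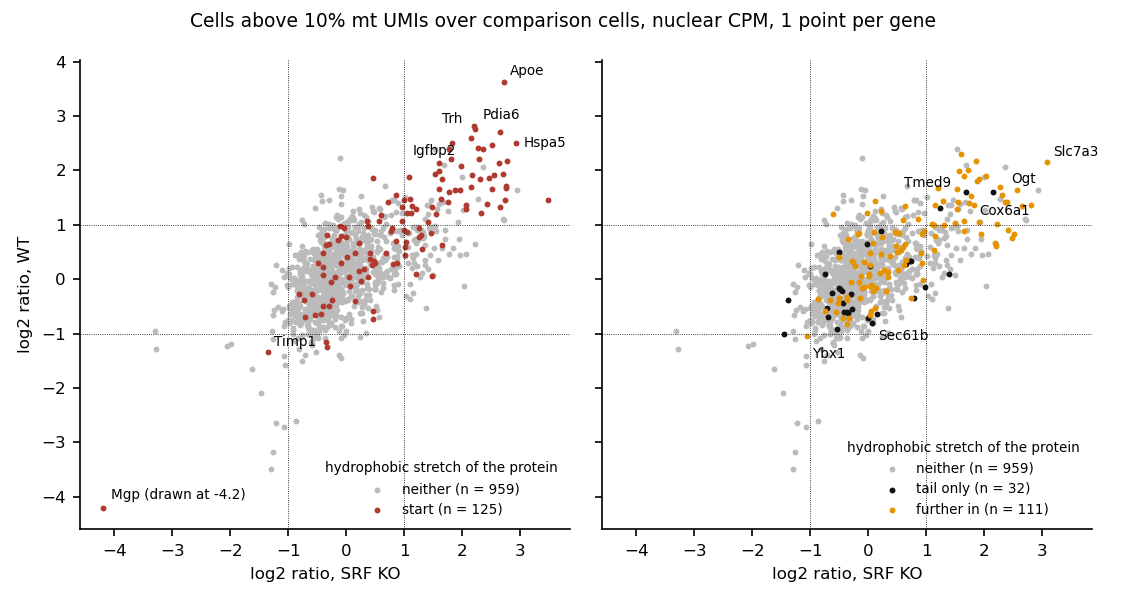
Log2 ratio of selected over comparison cells in SRF KO (x axis) and WT (y axis), 1 point per gene, with dotted lines at 2-fold. Genes with a hydrophobic start (left panel, red) lie mostly in the upper right, with medians of 1.002 and 0.94, and genes with a tail only (right panel, black) have medians of -0.29 and -0.23, and Mgp is drawn at the lower edge.

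Transcript length also went with the ratio. Across the 1227 genes, the log2 ratio and the log2 length of the transcript had Pearson's r of 0.34 and Spearman's rho of 0.29 in SRF KO, and 0.24 and 0.27 in WT. Genes share cells and depth, so these are descriptions. Within the genes with a hydrophobic start, the lowest quartile of length (up to 1054 bases) had medians of 0.23 and 0.19, and the highest (2657 bases and more) 1.62 and 1.35. Within the 959 genes with neither feature, ribosomal proteins included, the lowest quartile had -0.28 and -0.19 and the highest 0.29 and 0.25. The shortest genes with a hydrophobic start thus had lower medians than the longest genes with neither feature. The part of length in the ratios of the classes was not tested.

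Cytosolic ribosomal protein genes were lower together. Of 84 that entered, 75 were below 0 in both libraries, though none reached 2-fold in both, and the medians were -0.40 and -0.43. They made up 27.7% of nuclear UMIs in the selected SRF KO cells and 28.3% in the WT ones, against 36.4% and 39.4% in the comparison cells. Rpl17 had log2 ratios of -0.93 and -0.90 and Rps14 -0.66 and -1.002. Rpl18 was among the 2 that were above 0 in both (0.46 and 0.40). These genes have near-identical pseudogene copies, and how reads shared with copies were counted is not given in the sources used here. Other parts of the translation machinery were mixed. Eef1a1, the gene of elongation factor 1 alpha, had -0.88 and -0.41, and Eif4g1, the gene of a scaffold of the initiation complex, 1.41 and 0.20.

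Nuclear genes of the respiratory chain went only partly with the mitochondrial transcripts. Of 71 that entered, 38 were above 0 in both libraries and 15 below, with medians of 0.16 and 0.33. Of the 71, 4 were called higher, a share below the 8.49% of all genes. They were Cox6a1 (1.77 and 1.53) and Cox4i1 (1.10 and 1.01) of complex IV, Uqcrc1 of complex III (1.01 and 1.502) and Sdha of complex II (1.35 and 1.10). Cox7a2l, the gene of a supercomplex factor, was called lower (-1.26 and -1.09), and Atp5e of ATP synthase had -0.47 and -0.86. The 32 mitochondrial ribosomal protein genes had medians of -0.24 and -0.04, with Mrpl33 at 0.88 and 0.38, Mrpl18 at -1.01 and -0.75 and none past 2-fold in both libraries. The 5 mitophagy genes that entered had medians of -0.17 and -0.48, from Gabarap (-1.27 and -0.65) to Bnip3l (0.02 and 0.24). Of the factors that express or maintain mitochondrial DNA, Slirp and Ssbp1 entered, with 0.18 and -0.09, and -0.13 and 0.37.

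Counted per cell, kinds of nuclear transcript ranked in the same order in SRF KO and WT when set against cells of 1 to 10% and any depth. The median selected cell held 180% (SRF KO) and 168% (WT) of their mitochondrial UMIs, which the rule used and which only describe the selection. Of their Malat1 UMIs it held 41.2% and 68.5%. It held 41.0% and 43.6% of their UMIs from genes with a hydrophobic start, and 34.0% and 32.9% of those from genes with a stretch further in. For tail-only genes the values were 22.9% and 21.4%, and for genes with neither feature, ribosomal proteins left out, 24.4% and 24.1%. Cytosolic ribosomal protein transcripts were the lowest, at 13.1% and 13.7%. In UMIs, that was a median of 1180.0 against 8985 in SRF KO and 1403 against 10207 in WT. In these droplet counts, fewer RNA molecules in a cell and poorer capture of them cannot be told apart.

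**Figure D3:**
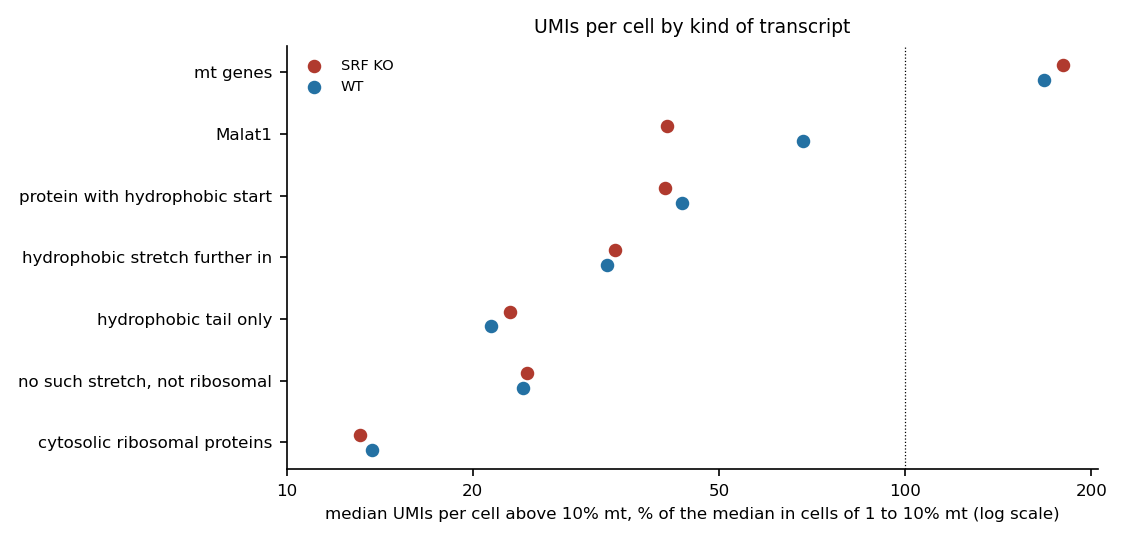
Median UMIs per selected cell as a percent of the median in cells of 1 to 10% mitochondrial share and any depth (x axis, logarithmic), by kind of transcript, with 1 point per library. Mitochondrial genes, which the rule used, lie above 100%, genes with a hydrophobic start at 41.0 and 43.6%, and cytosolic ribosomal protein genes at 13.1 and 13.7%.

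The cells did not all share this profile. In the plot of shares against mitochondrial share, the ribosomal medians of SRF KO cells under 12000 UMIs changed most between the bins that meet at 20%. The bin edges were fixed, so they show no exact boundary between sets of cells. The 20 cells of 10 to 20% kept a median of 35.1% of nuclear UMIs from cytosolic ribosomal protein genes, close to the 36.9% of cells of 5 to 10%. The 31 cells of 20 to 40% had 19.7%, and the 13 above 40% had 20.8%. Genes with a hydrophobic start made up 8.87%, 14.6% and 11.7% in those bins, against 5.01%, 5.55% and 6.97% in the bins of 1 to 3, 3 to 5 and 5 to 10%. In WT the largest change between bins lay at the 10% limit. The medians were 5.98%, 5.92% and 5.94% in the lower bins, then 11.4% (15 cells), 11.2% (10 cells) and 8.05% (3 cells). The ribosomal protein share in WT went from 39.4% in the bin of 5 to 10% to 26.1% in that of 10 to 20%.

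Over all selected cells, the hydrophobic-start share ran from 4.89 to 29.97% in SRF KO (median 12.1%) and from 4.39 to 17.2% in WT (median 10.6%). The comparison cells had medians of 5.86% and 5.95%. Without Apoe the medians were 11.6% and 10.1%, against 5.85% and 5.92%. Among the 73 SRF KO cells the share of hydrophobic-start genes and that of ribosomal protein genes had Pearson's r of -0.71 and Spearman's rho of -0.73. Among the 33 WT cells these were -0.38 and -0.23. Both shares come from 1 total per cell, which ties them, so the values are descriptions.

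**Figure D4:**
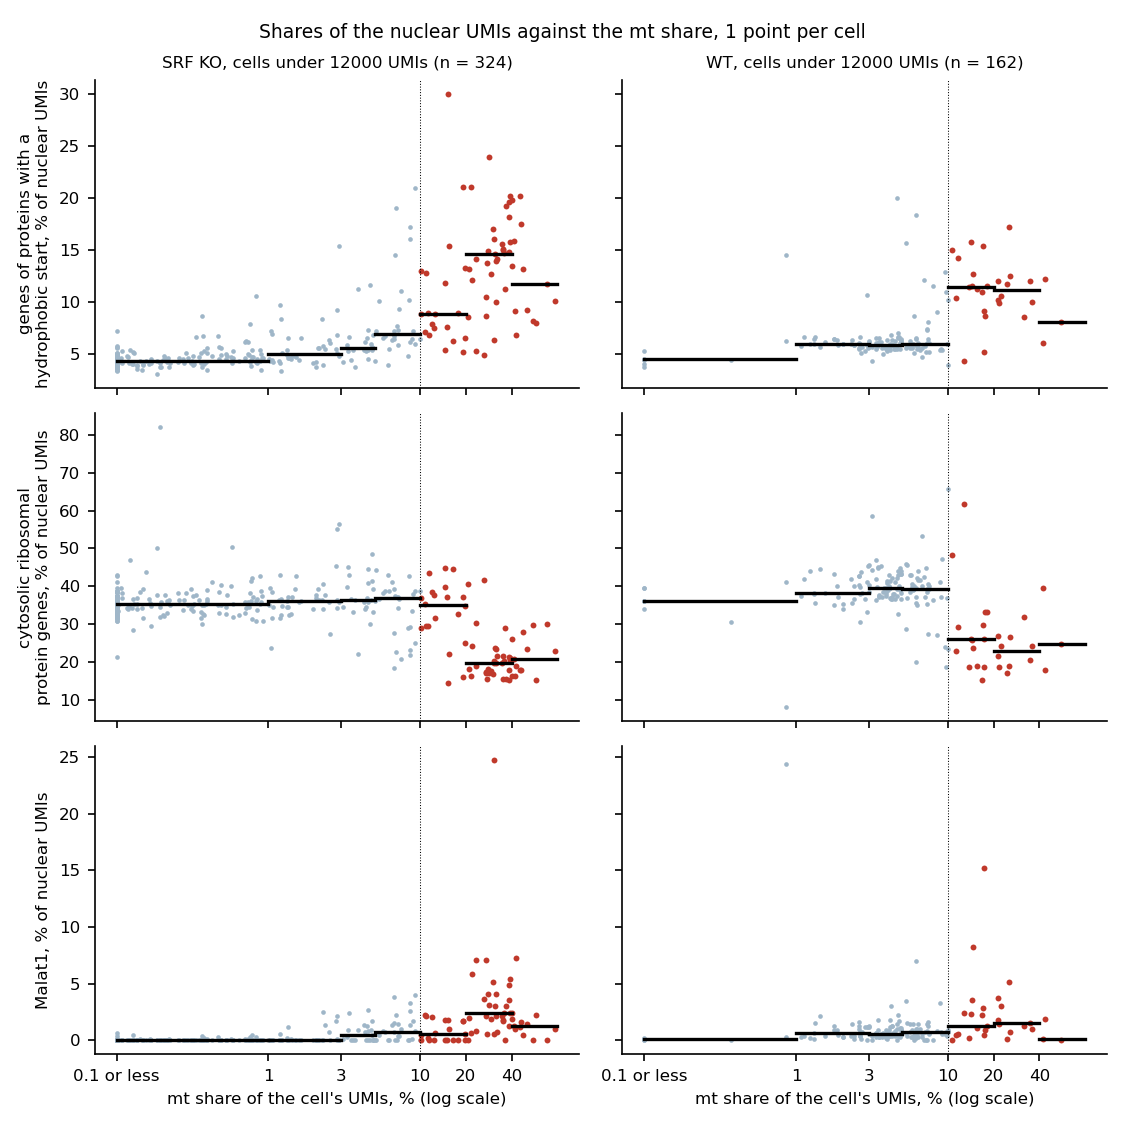
Share of nuclear UMIs from genes with a hydrophobic start (top), cytosolic ribosomal protein genes (middle) and Malat1 (bottom) against the mitochondrial share (logarithmic), 1 point per cell under 12000 UMIs. Black bars are medians of bins and red points the selected cells. The bin median of the ribosomal share falls most at the bin edge of 20% in SRF KO (35.1 to 19.7%) and of 10% in WT (39.4 to 26.1%).

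Malat1, an abundant long noncoding RNA kept in the nucleus, was higher in the sums but uneven between cells. It stood at 19158 CPM in SRF KO and 20634 in WT, against 6130.1 and 7988 in the comparison cells (log2 ratios 1.64 and 1.37). Its median share per cell was 1.67% and 1.41%, with a range from 0 to 24.7% and 15.2%, and 11 of 73 and 2 of 33 selected cells had no Malat1 UMI. Of the SRF KO comparison cells, 28 of 89 had none either, and their median was 0.0428%, against 0.602% in the WT comparison cells. Set against SRF KO cells of 1 to 10% and any depth, the log2 ratio was 0.998, just short of 2-fold, and in WT it was 1.73. After thinning, 80.3% of selected and 53.9% of comparison cells in SRF KO had a Malat1 UMI, and 87.9% and 94.4% in WT. Among SRF KO cells under 12000 UMIs, the bin of 10 to 20% had a Malat1 median of 0.530%, below the 0.741% of the bin of 5 to 10%. The bin of 20 to 40% had 2.38%. In WT, the 3 cells above 40% had 0.113%, below the 0.680% of the bin of 5 to 10%. Malat1 thus marks these cells on average, and neither each of them nor each bin. Kcnq1ot1, the other nuclear RNA that entered, had 2.22 and 1.45.

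The genes called lower depended on which cells made up the comparison group. The 15 were Mgp, Cald1, Supt16, Timp1, Rpgrip1, S100a6, Spry2, Vim, Actb, Lgals1, Cox7a2l, Tcf15, Cbx3, Ybx1 and Arpc1b. Of the comparison cells, 8 SRF KO and 7 WT cells held at least 5 UMIs of fibroblast markers, against 0 and 1 of the selected cells. The 10 fibroblast markers summed to 742 and 496 CPM in the comparison cells and 27.4 and 75.2 CPM in the selected ones. Col1a1 and Lum were at 0 in the selected cells of both libraries. They were at most at 9.49 CPM in the comparison cells, too low to show a difference. Mgp, the gene of matrix Gla protein, had 352 UMIs in the SRF KO and 452 in the WT comparison cells, and 2 and 0 in the selected cells. In WT it was at least 30.4-fold lower, from a limit of 3 counts over the group, and in SRF KO the log2 ratio was -6.53 (-9.90 to -4.98). Without the fibroblast-marker cells it had 0.49 and -0.90, S100a6 0.21 and 0.26, and Lgals1 0.22 and 0.57. Without them 7 of the 15 were still past 2-fold lower in both libraries.

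Actb, the beta-actin gene and a known SRF target, was lower mainly against unusual comparison cells. Its median share of nuclear UMIs was 0.54% in the WT comparison cells, against 0.0722% in all WT cells of 1 to 10% and 0.0741% in the selected WT cells. In SRF KO these were 0.0593%, 0.0255% and 0.0143%. The log2 ratio went from -1.22 and -2.64 to 0.00 and -0.36 when comparison cells of any depth were used. Spry2, Rpgrip1, Cbx3 and Supt16 lay between -0.55 and 0.75 with those cells. Of the 15 genes, 2 still reached the entry minimum with those cells and stayed past 2-fold lower in both libraries. They were Ybx1, which encodes a cytosolic RNA-binding protein (-1.06 and -1.57, then -1.10 and -1.51), and Tcf15, the gene of a transcription factor of early epiblast cells (-1.07 and -1.42, then -1.50 and -1.08). Mgp had -3.72 and -3.80 with those cells but did not reach the entry minimum of 100 CPM there. Of the 106 genes called higher, 96 entered again and stayed past 2-fold with those cells, and 103 did so without the fibroblast-marker cells.

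Histone and S phase genes lay on opposite sides of the median of all genes (-0.14 and 0.15) in both libraries. The 7 histone genes that entered had medians of -0.62 and -0.29, and 5 were below 0 in both, with Hist1h2ap at -1.29 and -0.94. The 13 S phase genes had medians of 0.32 and 0.55, and 9 were above 0 in both, from Tipin (-0.53 and -0.78) to Dtl (2.21 and 0.64). Among 21 G2/M genes 2 were called higher, a share near the 8.49% of all genes. They were Top2a (1.38 and 1.36), which encodes a topoisomerase, and Lbr (2.35 and 1.42), which encodes a receptor of the inner nuclear membrane. The 28 spliceosome genes had medians of -0.10 and 0.37, with Snrnp70 at 0.86 and 1.24 and Hnrnpa1 at -0.78 and -0.77. The 5 tubulin genes had medians of -0.11 and 0.35, and the 5 genes of the naive pluripotent state -0.01 and 0.25, with Klf4 at 0.90 and 0.25 and Mt2 at -0.09 and -0.87. Of the snoRNA host genes, Snhg12 had 1.64 and 0.57 and Epb41l4aos -0.01 and -1.32. The list medians are in the plot of gene lists.

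**Figure D5:**
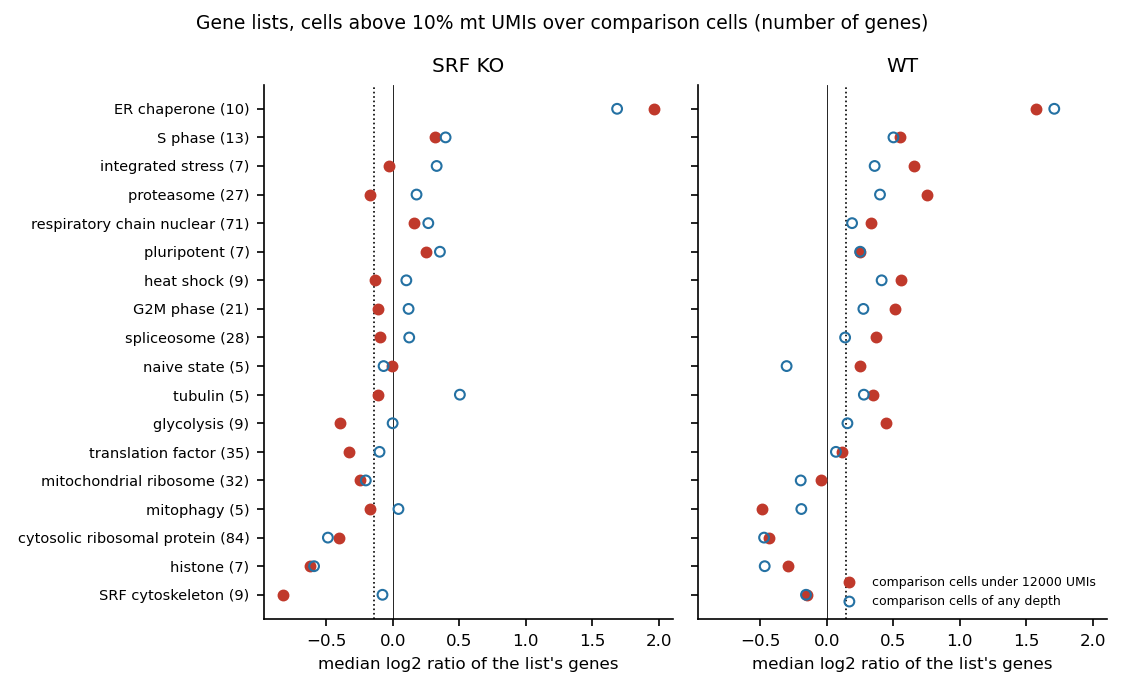
Median log2 ratio of selected over comparison cells for each gene list with at least 5 genes that entered (number in parentheses), by library. Filled points use comparison cells under 12000 UMIs and open points those of any depth, and the dotted line is the median of all genes. ER chaperones (1.97 and 1.58) stand furthest to the right, and cytosolic ribosomal proteins (-0.40 and -0.43) lie to the left of the dotted line in both libraries.

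Primitive endoderm markers summed to more in the selected cells than in the comparison cells of both libraries, though single markers went both ways in SRF KO. The other marker lists were carried by few selected cells. Primitive endoderm markers (at least 2 UMIs after thinning) were carried by 11 of 71 SRF KO cells (15.5%, interval 7.996 to 26.0) and 0 of 33 WT cells, which allows a share of up to 9.09%. In the comparison cells these were 8 of 89 (8.99%) and 1 of 126. Before thinning, 22 of 73 SRF KO (30.1%) and 6 of 33 WT selected cells carried them, against 12 of 89 and 4 of 126. Their summed level was 454 and 94.0 CPM, against 291 and 21.8. In SRF KO, Lamb1 (146 against 26.9 CPM), Lama1 (57.1 against 10.5), Col4a1, Pdgfra, Foxa2 and Sox7 were higher. Gata6 (18.3 against 32.8), Gata4 (11.4 against 16.4), Dab2 (112 against 137) and Sox17 (0 UMIs against 7) were lower. In WT, Lamb1 held 16 of the 20 UMIs of the selected cells, and Gata6, Gata4 and Sox17 had 0 in both cell groups. Macrophage markers were carried by 2 of 71 and 0 of 33 selected cells, with 568 and 28.2 CPM against 961 and 473, and trophectoderm markers by 3 and 0. Apoe is also a macrophage gene. Without cells of at least 5 macrophage UMIs, 107 genes were called higher, 102 of them among the 106.

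Between the genotypes, both cytoplasmic actin genes, known targets of Srf, were past 2-fold lower in the selected SRF KO cells. Of 1531 genes whose average over the selected SRF KO and WT cells reached 100 CPM, 39 (2.55%) were at least 2-fold higher in SRF KO and 22 (1.44%) at least 2-fold lower. Among the 9 cytoskeleton genes of the SRF list the median log2 ratio, SRF KO over WT, was -0.28. Only Actg1 and Actb were past 2-fold lower, and 3 were above 0: Tpm3 (0.71), Pfn1 (0.48) and Dstn (0.13). Actg1, the gamma-actin gene, was at 319 CPM against 1453 (-2.18, interval -2.48 to -1.89), and its ratio was -1.10 in the comparison cells and -1.82 in cells of 1 to 10% and any depth. Actb was at 415 CPM against 869.9 (-1.07, -1.37 to -0.76), and its ratios there were -2.48 and -1.43. The 3 immediate early genes that entered, Ier2, Jund and Dusp1, had -0.39, -0.30 and -0.30, each with an interval that spans 0. The 7 pluripotency genes had a median of -0.32, close to -0.33 in the comparison cells. Genes with a hydrophobic start (207) had a median of 0.20 and the 10 ER chaperone genes 0.54, and in cells of 1 to 10% and any depth these were 0.23 and 0.43. Hspa5 was at 1561 CPM in SRF KO and 1091 in WT (0.51, 0.30 to 0.74). The groups compared hold cells of different mitochondrial share (medians 27.6% and 17.3%), and the part of this in the ratios was not tested.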

How the data were processed

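Single-cell libraries of SRF KO and WT iPSCs were analysed from the deposited counts, whole numbers of UMIs per gene and cell in integer matrices per the file headers. The submitters' processing notes name Cell Ranger 2.0.0, Seurat 3.1.1 and the build mm10; how cells were called, and the annotation, are not given in the sources used here. The bulk RNA sequencing was not analysed here. The libraries held 22277996 (SRF KO) and 24005849 (WT) UMIs, with medians of 20605 and 25907 UMIs per cell. All deposited cells were used: no doublets were called or removed, and free RNA was not corrected for.

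Counts were summed over the cells of a group and scaled to CPM without the 13 mitochondrial genes. Ratio intervals are conditional Poisson and share intervals Clopper-Pearson, both exact at 95%, and a count of 0 allows up to 3 counts. The scripts (Python 3.11.15, numpy 2.4.6, scipy 1.17.1, pandas 2.3.3) were tested on simulated data. For shares of cells, each cell was thinned to 2000 nuclear UMIs (seed 1). Proteins were translated from GENCODE M21 transcripts. The genes named are the 12 highest and 12 lowest called in both libraries, ranked by the ratio smaller in size, all mitochondrial genes, Malat1, and members of the gene lists by rank; others are named as examples chosen after their values were seen. The members, the gene lists and the limits were chosen with earlier results of these data known. The calls and medians were recomputed under 14 alternatives listed at the start and 2 added later. Some items are not reported here.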

Additional observations from a re-analysis of the deposited data

Results flagged for a closer look

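Proteasome and glycolysis genes had median ratios of opposite sign in SRF KO and WT, both as measured and relative to the median of all genes, and these differences were not tested. The 27 proteasome genes that entered, which encode subunits of the main protein-degrading complex, had medians of -0.17 in SRF KO and 0.75 in WT, a difference of -0.92. Psmc5 had -0.06 and 1.64, Psmb5 0.58 and 1.29, and Psmb1 -0.81 and 0.16. The 9 glycolysis genes had -0.39 and 0.44, a difference of -0.84, with Pgam1 at -0.88 and 0.44 and Pkm at -0.34 and 0.73. With comparison cells of any depth the medians were 0.18 and 0.40 for the proteasome and 0.00 and 0.16 for glycolysis, so the signs no longer differed for the proteasome. The comparison cells under 12000 UMIs also differed from all cells of 1 to 10% in Actb, whose median share of nuclear UMIs was 0.54% against 0.0722% in WT and 0.0593% against 0.0255% in SRF KO. Their part in these medians was not tested.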

How the results depend on the processing

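No paired analysis was possible because SRF KO and WT came as 1 library each. Counts of genes kept within 1.5 times, or list medians within 0.25, were taken as unmoved. At a mitochondrial limit of 20% (47 and 13 cells), 189 genes were higher in both libraries (94 of them among the 106) and 45 lower. There the SRF KO medians were 1.26 for hydrophobic starts, 2.54 for ER chaperones and -0.85 for ribosomal proteins, and the WT ribosomal median was -0.73. With selected cells also held under 12000 UMIs (64 and 28 cells), 134 genes were higher, 99 of them among the 106, and 18 lower. Both counts were unmoved. Comparison cells of 1 to 5% gave ER chaperone medians of 2.39 and 1.95. Comparison cells of any depth gave 9 genes lower and an ER chaperone median of 1.69 in SRF KO. Totals without ribosomal protein genes gave 41 genes lower and ER chaperone medians of 1.57 and 1.31. A minimum of 50 CPM gave 263 genes higher and 28 lower, and one of 200 CPM gave 39 and 8. The cause was not tested, except that a minimum changes how many genes enter (2405 and 590). Over all 16 alternatives the hydrophobic-start medians lay between 0.82 and 1.26 in SRF KO and between 0.74 and 1.19 in WT. Away from these results, the WT mitophagy median of -0.48 was 0.0726 with comparison cells under 8000 UMIs, and the SRF KO glycolysis median of -0.39 was 0.0126 with cells of any depth and no cells of the fibroblast, primitive endoderm or macrophage lists. Among all other values recomputed, 59 moved, 16 of them with a change of sign, and 569 did not move, 41 of them with a change of sign. Those 16 and 41 were medians that lay within 0.25 of 0 as reported, such as the SRF KO proteasome and integrated stress medians and the pluripotency medians of both libraries. With 212663 nuclear UMIs in the selected WT cells, 3 counts are 14.1 CPM, and genes under 100 CPM were left out.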
